A study of Homo sapiens with 36 samples.

Results

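The synaptic vesicle release machinery was followed here through 37 genes, chosen by name as proteins of the synaptic vesicle, the SNARE complex and its partners, priming factors, the active zone scaffold, RAB GTPases of secretory vesicles and amphiphysin. Of the 19014 genes in the deposited table of normalized counts, 35 were members (SV2C and DOC2B were found in the FPKM table alone). A test was run on 15819 genes whose normalized count reached 10 or more in 9 or more of all 36 libraries, among them 32 members; SV2B, SNPH and CADPS2 fell below that limit. RNA-seq was made from H446, an established small-cell lung cancer line of the subtype marked by the neural transcription factor NEUROD1. Its 3 control clones (3, 10 and 13) carried a non-targeting guide RNA, and its 3 NEUROD1 knockout clones (12, 15 and 2-1) were all made with guide #297, so effects of that guide and of NEUROD1 loss cannot be told apart. All clones were grown in RPMI with serum and received either DMSO, the solvent, or 1 µM JQ1 for 24 h, an inhibitor that competes with acetylated histones for the bromodomains of BET proteins. Every clone and treatment had 3 replicate libraries. The clone served as the replicate, so each group has n = 3 clones, and levels are clone means of normalized counts unless FPKM is named.

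A synaptic or dense-core vesicle fuses with the plasma membrane when its VAMP protein zips together with syntaxin-1 and SNAP-25 on the target membrane. Complexins clamp and assist this SNARE complex, UNC13 proteins open syntaxin to prime the vesicle, and RIM, bassoon, piccolo, ELKS and liprin-alpha scaffolds hold vesicles and calcium channels at the release site with the help of vesicle-bound RAB3. Neuroendocrine cells and tumours such as small-cell lung cancer use much of the same set to secrete hormones, and synaptophysin, the product of SYP, is a diagnostic marker of them.

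NEUROD1 was at 5134 to 6523 normalized counts in the 9 control libraries with DMSO and at 5939 to 8692 in the 9 with JQ1, against 0 to 6.60 and 0 to 10.2 in the knockout libraries, so every library matched its genotype label at the RNA level. Libraries held 13282337 to 18890506 reads, except the JQ1 library of knockout clone 12, replicate 1, with 31825795. Its counts differed from those of its replicates by a chi-square per degree of freedom of 295.6 to 341.4 (2.19 to 14.01 over the other replicate pairs). It held transcripts that the line does not express, with 4 lung epithelial markers (SFTPA1, SFTPA2, SFTPC and CEACAM6) summing to 66760 normalized counts against 0 to 113.7 in every other library. Among the 35 members in the table, 19 were above and 15 below both other replicates in that library. Counts of members called, and the log2 changes printed for JQ1 results in knockout clones, are therefore given with and without it. Its blood and stromal markers, listed next, summed to 17100 and 63804. The summed neuroendocrine markers (CHGA, INSM1, NCAM1 and NEUROD1) ran from 17562 to 22648 in control and from 2246 to 4736 in knockout libraries with DMSO. The 4 measured stromal and vessel markers (COL1A1, COL1A2, COL3A1 and VWF) summed to 2225 to 9174 in control and 25513 to 36042 in knockout libraries with DMSO, while the 4 measured blood markers (PTPRC, CD74, HLA-DRA and HBA1) summed to at most 47.5. Nearly all of the stromal and vessel sum with DMSO was collagen RNA. The vessel marker VWF was at most 27.5 in every library but the one that stood apart. With JQ1 the stromal and vessel sum was lower in both genotypes, at 347 to 2161 in control libraries and 7918 to 10399 in the 8 other knockout libraries, while the neuroendocrine sum was at 16570 to 25496 and 1657 to 3438. The part of these marker shifts in the results below was not tested, and in bulk RNA fewer cells of a type and less RNA per cell cannot be told apart.

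Promoter sequence was available from RefSeq (GRCh38.p14) for 30 of the 37 members, as windows from 250 bases before to 50 after a transcription start. They were searched on both strands for CAGATG, an E-box that NEUROD factors bind, for any E-box CANNTG (which includes every CAGATG), and for TTCAGCACC and GGACAG, the 2 parts of the RE1 element bound by the neuronal gene repressor REST. SYN1 and UNC13A were the members whose window held both RE1 parts, in any order, strand and spacing. This combination was found in 0.1139% of all 35116 windows and, counted per gene, in 0.1428% of 27305 genes. RAB3A and RAB3B are shown because these paralogs moved in opposite directions between genotypes. Each stretch is on the minus strand of its chromosome and is written 5′ to 3′ along the gene, with the motifs in capitals. The SYN1 stretch (chrX:47619872-47620107) holds TTCAGCACC and GGACAG with 2 bases between them and, near its end, CAGATG on the opposite strand. The UNC13A stretch (chr19:17688339-17688402) holds both parts on the opposite strand with 8 bases between them, straddling the start. The RAB3A stretch (chr19:18204094-18204189) has CAGATG on the opposite strand, after an E-box of another sequence, and the RAB3B stretch (chr1:51990752-51990847) has 1 E-box, which is not CAGATG.
SYN1: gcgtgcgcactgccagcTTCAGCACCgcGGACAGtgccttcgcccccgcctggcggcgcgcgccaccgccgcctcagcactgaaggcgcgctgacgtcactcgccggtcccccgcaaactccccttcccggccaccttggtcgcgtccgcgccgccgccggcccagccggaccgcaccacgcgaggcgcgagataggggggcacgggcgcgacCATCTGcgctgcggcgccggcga
UNC13A: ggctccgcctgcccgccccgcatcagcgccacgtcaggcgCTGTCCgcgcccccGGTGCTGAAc
RAB3A: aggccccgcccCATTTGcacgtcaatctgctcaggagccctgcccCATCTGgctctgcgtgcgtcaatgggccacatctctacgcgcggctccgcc
RAB3B: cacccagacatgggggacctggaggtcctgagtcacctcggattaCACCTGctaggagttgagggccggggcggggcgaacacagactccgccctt
CAGATG was present in 14.7% of all windows and, counted per gene, in 17.48% of 27305 genes and in 7 of the 30 members (PPFIA2, RAB27A, RAB3A, RIMS1, SV2A, SYN1 and SYNGR1). Any E-box was present for 73.07% of genes and for 19 of the 30 members. Such a match describes letters in a window and is not a measured binding site.

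With DMSO, 19 of the 32 members tested fell and 1 rose in the knockout clones (limma with Benjamini-Hochberg adjusted p under 0.05), against 6.23% of all 15819 genes that fell and 6.32% that rose. The members were picked with earlier results of these data known. The median log2 fold change of the 32 was -1.91, beside 0.01 over all genes tested, and 27 of the 32 estimates were negative. Falls were called in 5 of 6 tested vesicle proteins, 5 of 8 SNAREs and partners, 1 of 4 priming factors, 6 of 8 scaffold proteins and 2 of 5 RAB GTPases. RAB3B was the member that rose. Without control clone 10, or without control clone 13, 13 members were called in each case. Over all genes 906 and 1119 were called in these fits, against 1985 with all clones.

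**Figure D1:**
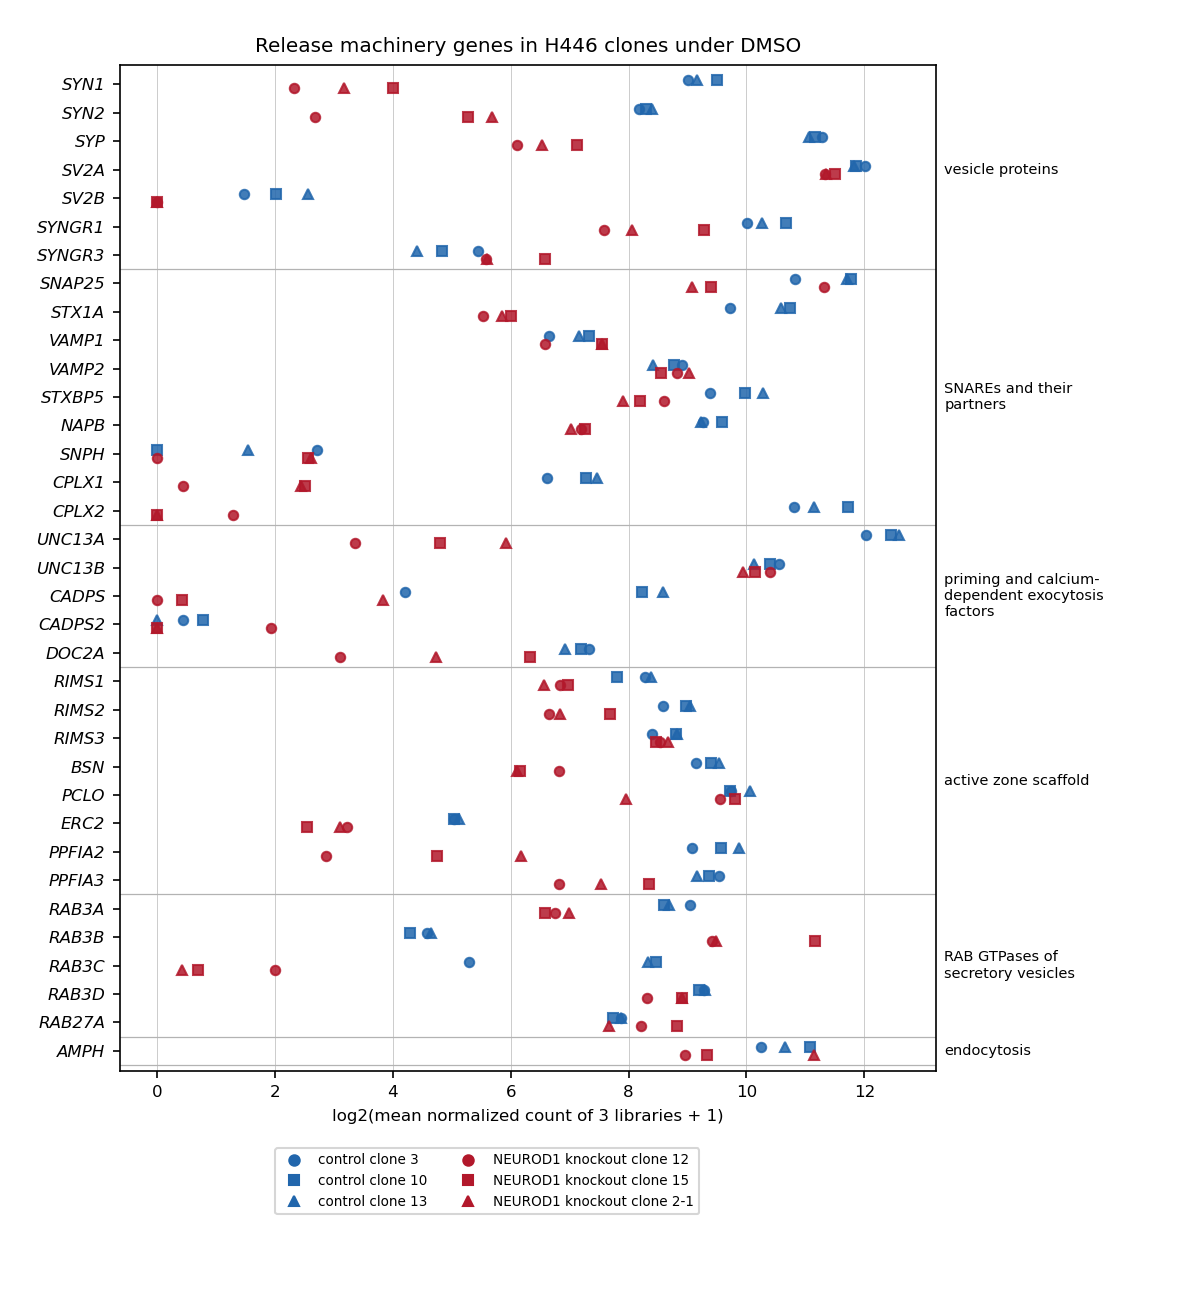
Level of the 35 members in the normalized table under DMSO, as log2 of the mean of 3 libraries plus 1, grouped by role; blue symbols are control clones and red symbols knockout clones. CPLX2, UNC13A and RAB3C show wide gaps between the genotypes, RAB3B lies the other way round, and VAMP2 and RIMS3 overlap.

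Among vesicle proteins, SYN1 (synapsin I, which tethers vesicles to actin) was at 511, 724 and 570 in control clones 3, 10 and 13, and at 3.98, 15.0 and 7.96 in knockout clones 12, 15 and 2-1. No knockout clone came near the control range. The log2 fold change was -6.15 (SE 0.45, adjusted p = 0.000497). SYP, the vesicle membrane protein synaptophysin, had 2496, 2296 and 2148 in the control clones and 68.0, 138.2 and 91.2 in the knockout clones, in the same clone order. Its levels were also apart in all clones, with a log2 fold change of -4.59 (SE 0.26, adjusted p = 0.000187). SYN2, the second synapsin gene, was at 289, 313 and 336 in control clones and at 5.40, 37.9 and 50.1 in knockout clones. Clone 12 was the lowest, and the log2 fold change of -3.76 carried an SE of 0.76 (adjusted p = 0.0227). SV2A, a transporter-like vesicle glycoprotein and the target of the drug levetiracetam, fell by 0.50 on the log2 scale (SE 0.12, adjusted p = 0.0391), the smallest of the called falls. SYNGR1 (synaptogyrin-1) fell by 2.01 (SE 0.44, adjusted p = 0.0287), and SYNGR3 had an estimate of 1.04 that did not pass (adjusted p = 0.168). The calls of SYN2, SV2A and SYNGR1 were lost in 3, 8 and 5 of 21 alternatives, which for each gene included leaving out any one control clone.

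In the SNARE group the complexins had nearly vanished from the knockout clones. CPLX2 was at 1786, 3379 and 2259 in control clones, and the 9 knockout libraries held 4 reads in all, every one in clone 12 (1.45, 0 and 0). Its fitted log2 fold change of -10.80 (SE 0.45, adjusted p = 7.25e-05) depends on the pseudocount of 1 because of these low counts. CPLX1 was lower in the control clones to begin with, at 96.9, 153.5 and 176.5, and at 0.36, 4.73 and 4.44 in the knockout clones. The difference was -5.68 on the log2 scale (SE 0.56, adjusted p = 0.00167). STX1A, the plasma membrane syntaxin, stood at 845, 1701 and 1539 in control clones and at 45.1, 63.5 and 56.8 in knockout clones. Its knockout clones were alike, and the log2 fold change was -4.56 (SE 0.31, adjusted p = 0.000336). NAPB, the brain form of the SNAP adaptor that recruits NSF to disassemble SNAREs, fell by 2.21 (SE 0.18, adjusted p = 0.000756). STXBP5 (tomosyn, which competes for syntaxin) fell by 1.65 (SE 0.29, adjusted p = 0.0136). The vesicle SNAREs were not called, with estimates of 0.18 for VAMP1 and 0.10 for VAMP2. SNAP25, the third core SNARE, was not called either (-1.50, SE 0.60, adjusted p = 0.158).

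Of the priming factors, UNC13A was called. Its product Munc13-1 primes vesicles by opening syntaxin, and the gene was at 4198, 5580 and 6152 in control clones and at 9.29, 27.0 and 59.7 in knockout clones. The log2 fold change was -7.68 (SE 0.61, adjusted p = 0.000665). Its paralog UNC13B was at 1122 to 1503 in control and 987 to 1344 in knockout clones, which overlapped (-0.20, SE 0.18, adjusted p = 0.531). CADPS, which primes dense-core vesicles, had a large estimate of -5.62 that did not pass (SE 1.46, adjusted p = 0.0522). Its control clones were far apart, at 17.4, 298 and 384. DOC2A, a calcium sensor of slow release, had an estimate of -2.44 (SE 0.75, adjusted p = 0.0861).

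Within the active zone scaffold all 8 estimates were negative, and 6 members fell. PPFIA2 (liprin-alpha-2) was at 540.0, 759 and 934 in control clones and at 6.29, 25.8 and 71.5 in knockout clones. Clones of both genotypes varied, yet the groups were apart, with a log2 fold change of -4.94 (SE 0.80, adjusted p = 0.0103). BSN (bassoon) was at 566, 673 and 742 against 112.2, 70.0 and 67.9, a log2 fold change of -3.01 (SE 0.26, adjusted p = 0.000898). ERC2, the neuronal ELKS protein, was low throughout, at 31.7, 31.8 and 33.8 in control clones and 8.31, 4.83 and 7.59 in knockout clones (-2.11, SE 0.35, adjusted p = 0.0112). RIMS1, RIMS2 and PPFIA3 fell by 1.37, 1.81 and 1.79 on the log2 scale (adjusted p = 0.0134, 0.0125 and 0.0264). RIMS3, a short RIM that lacks the RAB3-binding part, and PCLO (piccolo) were not called, at -0.12 and -0.74. The calls of RIMS1, RIMS2, ERC2 and PPFIA3 were lost in 2, 2, 2 and 4 alternatives, each time including the one without control clone 13.

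The RAB3 paralogs went different ways. RAB3A, the main vesicle RAB of neurons, was at 528, 389 and 410.0 in control clones and at 106.3, 94.7 and 126.5 in knockout clones. All knockout clones were lower, by 2.01 on the log2 scale (SE 0.21, adjusted p = 0.00218). RAB3C was at 38.0, 352 and 320.0 against 3.00, 0.62 and 0.34, with control clone 3 standing well below the other control clones (log2 fold change -6.45, SE 0.93, adjusted p = 0.00712). RAB3B, a RAB3 of endocrine and epithelial secretory cells, moved against the group. It was at 23.0, 18.5 and 23.9 in control clones and at 679, 2297 and 717 in knockout clones. Every knockout clone was above every control clone, by 5.53 on the log2 scale (SE 0.48, adjusted p = 0.00102). RAB3D and RAB27A, which act on secretory granules of many cell types, were not called, at -0.54 (adjusted p = 0.135) and 0.40 (adjusted p = 0.45). AMPH (amphiphysin, which bends membrane during vesicle endocytosis) was at 1215, 2152 and 1619 in control clones and at 497, 647 and 2256 in knockout clones, which overlapped (-0.85, SE 0.56, adjusted p = 0.384).

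FPKM, which is scaled by gene length, allows levels to be compared between genes. Summed over the 37 members it was 545 to 718 in the 3 control clones and 214 to 232 in the 3 knockout clones with DMSO. SNAP25 had the highest mean in the control clones (100.3 ± 32.5 FPKM, SD), followed by SYP (73.0 ± 6.27), STX1A (64.0 ± 21.7) and SV2A (59.1 ± 4.59), whose ranges overlapped in part. In the knockout clones SNAP25 (41.8 ± 36.4) and SV2A (40.8 ± 4.49) were highest, then AMPH (27.0 ± 23.4) and VAMP2 (15.5 ± 2.19). SYP was at 3.08 ± 1.20 FPKM there and STX1A at 3.59 ± 0.34.

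The make-up of several paralog families differed between the genotypes as a description of FPKM shares. UNC13A made up 65.7% to 79.1% of UNC13A plus UNC13B in control clones and 0.46% to 3.75% in knockout clones, so UNC13B was the main form left. RAB3B was 0.24% to 0.31% of the 4 RAB3 genes in control clones and 20.6% to 47.7% in knockout clones, while RAB3A went from a share of 49.0% to 70.5% to one of 19.8% to 37.5%. Within the synapsins, SYN1 held 62.2% to 71.0% of FPKM in control and 13.0% to 25.6% in knockout clones, although both synapsins were lower in the latter. RIMS3 had 22.3% to 26.5% of the RIM total in control clones and 38.6% to 51.4% in knockout clones. SV2A was at least 99.89% of the SV2 family in the DMSO clones of both genotypes, since SV2B and SV2C were barely detected.

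**Figure D2:**
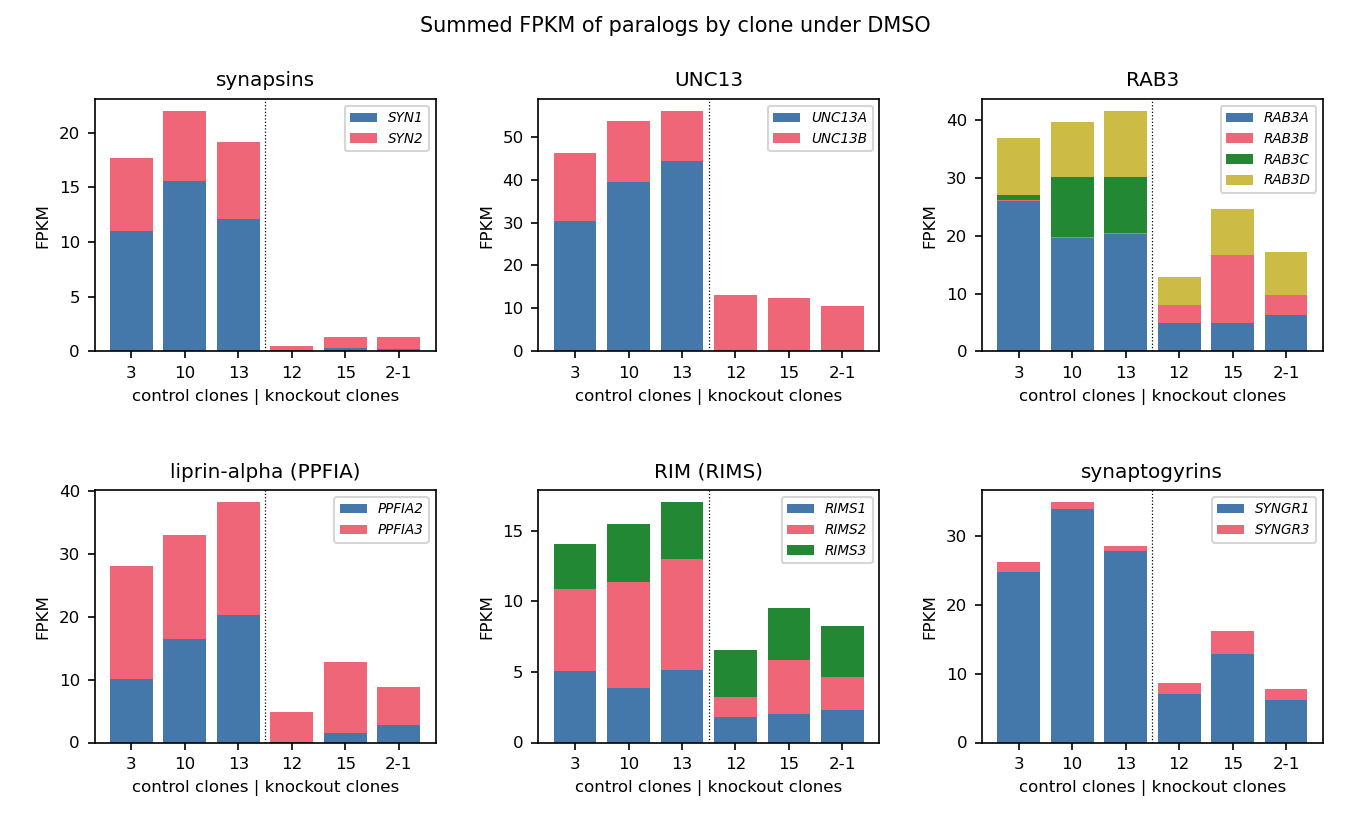
Stacked mean FPKM of paralogs in each of the 6 clones under DMSO, with control clones left and knockout clones right of the dotted line; each bar is the mean of 3 libraries. UNC13B and RAB3D remain in the knockout clones where UNC13A and RAB3C are nearly gone, and RAB3B appears there.

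The knockout clones also differed among themselves. With DMSO the highest clone was over 2 times the lowest in 18 of 32 members among knockout clones and in 4 of 32 among control clones (median ratio 2.14 and 1.39, computed with the pseudocount). The share of all genes with such a spread was not computed. The 18 include members with few reads in the knockout clones, such as CPLX1 (0.36 to 4.73), CPLX2 (0 to 1.45) and RAB3C (0.34 to 3.00). Their ratios are limited by counting error. Several members that were not called for genotype also differed over 2-fold between knockout clones, and 6 genes singled out after their values were seen are plotted by library. SNAP25 was at 2551 in knockout clone 12, inside the control range of 1803 to 3486, and at 671 and 540.2 in clones 15 and 2-1. AMPH was at 2256 in clone 2-1, above all control clones, and PCLO at 248 in the same clone, below all others, which had 749 to 1066. DOC2A was highest in knockout clone 15, at 78.9 against 7.61 in clone 12 and 25.5 in clone 2-1. Control clone 3 was the low one for CADPS (17.4 against 298 and 384) and for RAB3C (38.0 against 352 and 320.0).

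**Figure D3:**
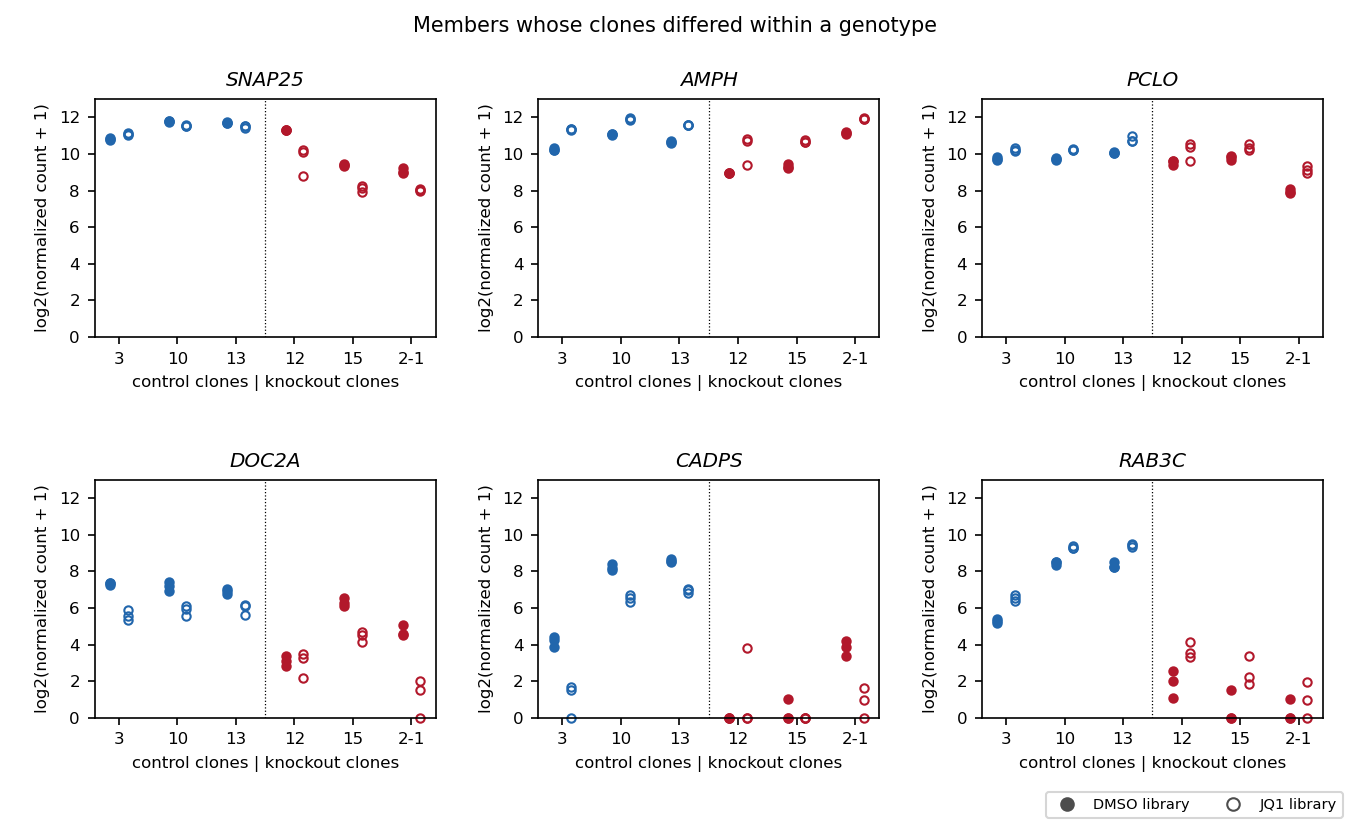
Each point is 1 library, as log2(normalized count + 1), for 6 members in the 6 clones; filled points are DMSO and open points JQ1, blue control and red knockout. DMSO libraries of SNAP25 lie close together within a clone, and those of knockout clone 12 lie above clones 15 and 2-1; the low JQ1 point of clone 12 for SNAP25, AMPH and PCLO is the library that stood apart.

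Under JQ1 the genotype difference was called in 21 of 32 members, of which 20 fell and RAB3B rose, beside 5.59% of all genes that fell and 6.37% that rose. The 20 members called with DMSO were all called again in the same direction, and SNAP25 was added. The same 6 clones served in both comparisons, and the share of all genes called in both was not computed. Lost most often with JQ1 were the calls of ERC2 (9 of 21 alternatives), SYNGR1 (6 of 22), RIMS1 and SV2A (5 of 22 each). SNAP25 was at 2171, 2948 and 2835 in control clones and at 904, 277 and 262 in knockout clones 12, 15 and 2-1 with JQ1. Its knockout clones were all below the control clones, unlike with DMSO, and the log2 fold change was -2.74 (SE 0.43, adjusted p = 0.00892). Without the library that stood apart, clone 12 was at 1133 and the log2 fold change was -2.59 (adjusted p = 0.0245). In the same fit 22 members were called, and the addition was DOC2A (-3.02, adjusted p = 0.0493, against -2.93 and 0.0523 with it). Over all genes 1766 were called without that library, against 1893 with it. All 93 CPLX2 reads of the knockout clones with JQ1 came from that library. Over the other 8 knockout libraries CPLX2 had 0 reads and the control mean was 1351, at least 3738-fold higher than the level that 3 reads over the group would give (counting error only).

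JQ1 changed the release machinery of the control clones in both directions. It lowered 5 members and raised 9 of 32, beside 24.9% of all genes that fell and 23.0% that rose, so the members' share called was close to that of all genes. The median log2 change was -0.03, beside -0.01 over all genes tested. STX1A went from 845, 1701 and 1539 to 3095, 4674 and 3062 in clones 3, 10 and 13. It was higher with JQ1 in every control clone (log2 change 1.44, SE 0.15, adjusted p = 0.000199). VAMP1, a vesicle SNARE, went from 99.8, 158.9 and 141.1 to 198, 274 and 265 (0.88, SE 0.10, adjusted p = 0.000313). CPLX2 moved the other way, from 1786, 3379 and 2259 to 881, 1739 and 1435 (-0.88, SE 0.19, adjusted p = 0.00607). Control clones thus had more STX1A and VAMP1 RNA and less CPLX2 RNA after 24 h of JQ1, and SNAP25 and VAMP2 were not called, at -0.07 and -0.08. The CPLX2 call was lost in 6 of 23 alternatives, and those of STX1A and VAMP1 in 0.

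Among the other roles, PPFIA3 and PPFIA2 fell and PCLO rose in control clones. PPFIA3 went from 739, 660 and 570 to 350.0, 368 and 255 (-1.03, SE 0.12, adjusted p = 0.000361), and PPFIA2 from 540.0, 759 and 934 to 311, 471 and 485 (-0.81, SE 0.15, adjusted p = 0.00245). PCLO went from 853, 843 and 1066 to 1203, 1196 and 1786 (0.58, SE 0.12, adjusted p = 0.00497). These scaffold genes changed in the same direction in each control clone, and the PPFIA2 call was lost in 3 of 23 alternatives. UNC13B rose from 1503, 1345 and 1122 to 2280, 2096 and 1918 (0.67, SE 0.07, adjusted p = 0.00015), whereas UNC13A was at 4198 to 6152 with DMSO and 4051 to 5561 with JQ1 and was not called (-0.09). CADPS was at 17.4, 298 and 384 and then at 1.35, 91.7 and 121.8 (-2.16, SE 0.70, adjusted p = 0.0333), a call lost in 9 of 23 alternatives.

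SYN2 rose in control clones from 289, 313 and 336 to 521, 527 and 600 (0.81, SE 0.25, adjusted p = 0.0272). SV2A fell from 4141, 3721 and 3625 to 2767, 2311 and 2600 (-0.58, SE 0.11, adjusted p = 0.00267). Both vesicle proteins moved alike in the 3 clones, and SYN1 and SYP were not called (0.23 and -0.12). RAB3C rose from 38.0, 352 and 320.0 to 92.6, 634 and 678 (1.06, SE 0.28, adjusted p = 0.0154), and RAB27A from 234, 212 and 233 to 346, 340.4 and 356 (0.62, SE 0.12, adjusted p = 0.00377). RAB3B had 23.0, 18.5 and 23.9 with DMSO and 34.6, 25.4 and 31.6 with JQ1 (0.46, SE 0.14, adjusted p = 0.0282), a low level whose call was lost in 8 of 23 alternatives. The calls of SYN2 and RAB3C were each lost in 4 of 23. AMPH rose from 1215, 2152 and 1619 to 2561, 3819 and 3109 (0.95, SE 0.11, adjusted p = 0.00032). The count of 14 was 9 without control clone 3 and 9 without control clone 10, beside 5126 and 4945 of all genes. It was 4 when at least a 2-fold change was also asked for, beside 2002 of all genes. The count was 16 when the spread was estimated without the knockout library that stood apart, with DOC2A and RIMS2 added. Over all genes 8294 were called without that library, against 7572 with it.

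**Figure D4:**
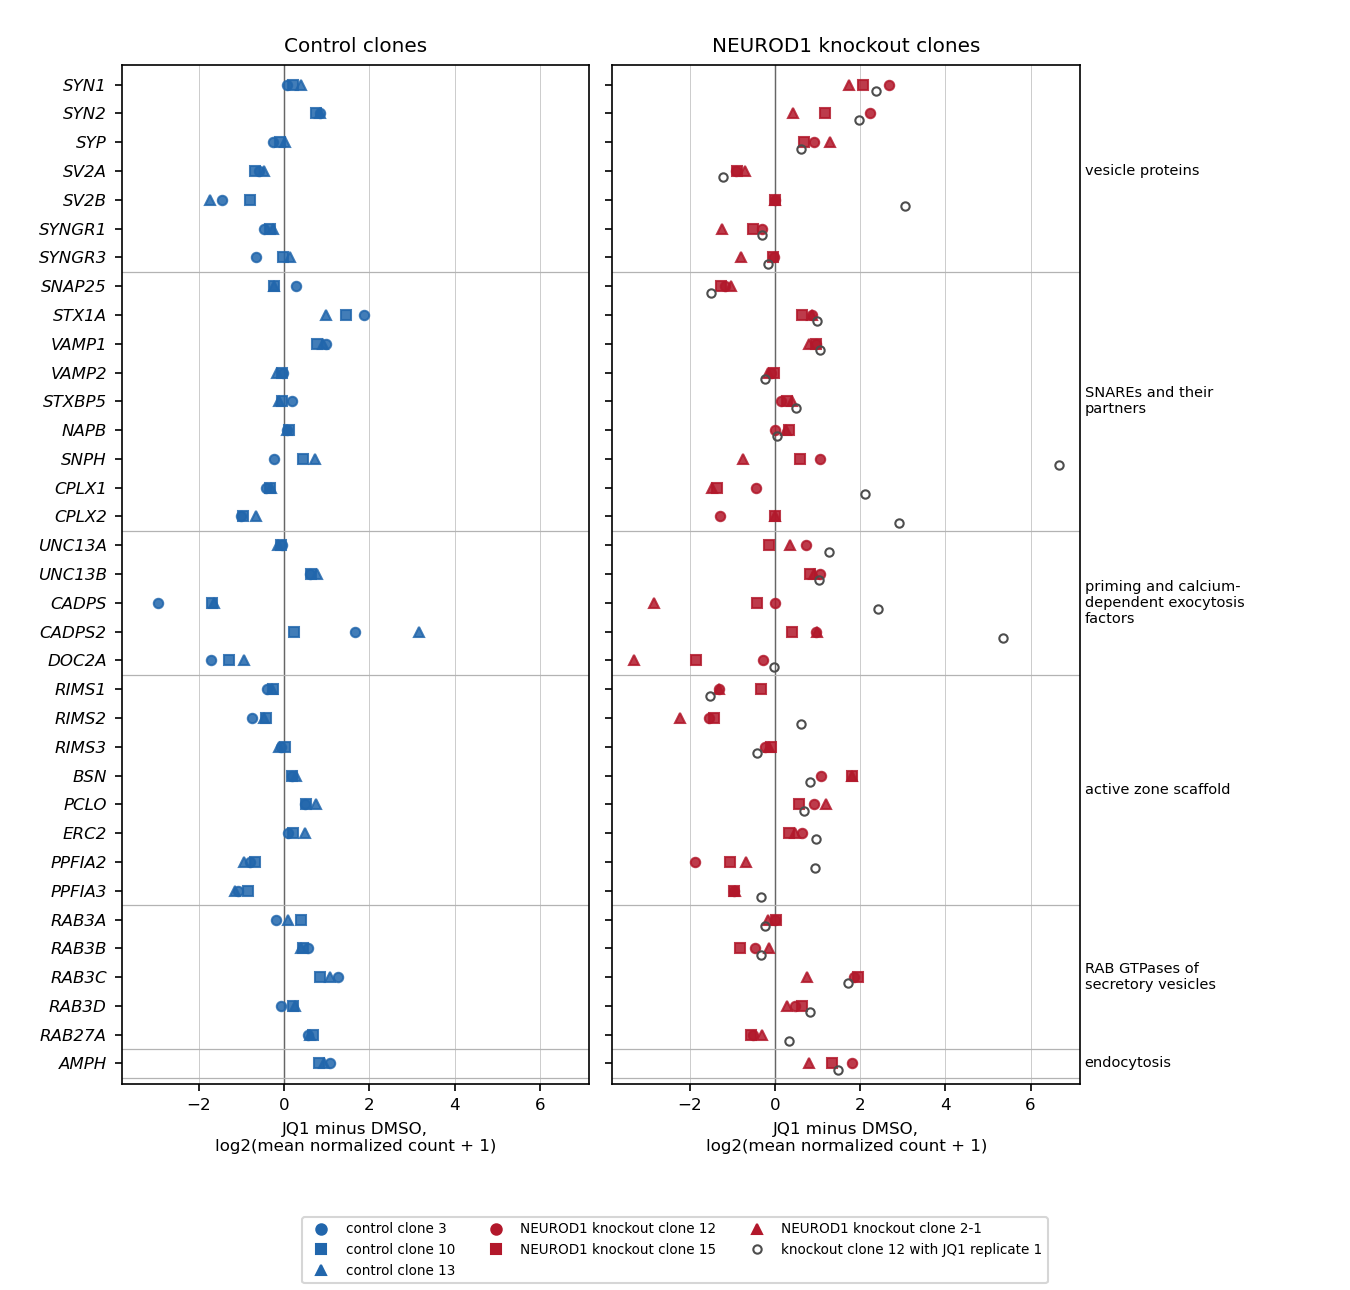
Difference between JQ1 and DMSO in each clone, in log2(mean normalized count + 1), for 35 members; left, control clones; right, knockout clones, with clone 12 drawn without its JQ1 replicate 1 (filled) and with it (open). SYN1 lies right of 0 in every knockout clone and near 0 in control clones, SNAP25 lies left of 0 in the knockout clones, and the open points of SNPH and CADPS2 show what that library adds.

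In the knockout clones JQ1 lowered 9 and raised 12 of 32 members, beside 25.7% of all genes that fell and 23.9% that rose. Called in the same direction in both genotypes were 10 members, among them STX1A, VAMP1, UNC13B, PCLO and AMPH upward and SV2A, PPFIA2 and PPFIA3 downward. Of all genes, 47.9% were called in control and 49.6% in knockout clones, and the share called in both was not computed. The PPFIA2 call in knockout clones was lost in 5 of 23 alternatives, with estimates from -1.25 to -0.20. Its clone 12 mean with JQ1 was 13.0 with the library that stood apart and 0.97 without it. RAB3B was called in opposite directions, from 679, 2297 and 717 to 543, 1289 and 646 in the knockout clones (-0.44, SE 0.14, adjusted p = 0.0333; -0.49 and 0.0152 without the library that stood apart) against its rise from a low level in control clones. Without that library, 12 members were called in the same and 2 in opposite directions. BSN rose from 112.2, 70.0 and 67.9 to 197.7, 248 and 239 (1.45, SE 0.19, adjusted p = 0.000546), and by 1.57 without that library (adjusted p = 4.8e-05). RIMS1 and RIMS2 fell in the knockout clones by 1.08 and 1.36 on the log2 scale (adjusted p = 0.00389 and 0.00543), and by 1.00 and 1.75 without that library (adjusted p = 0.00229 and 6e-05). RIMS2 was at 391 in the JQ1 library that stood apart and at 33.0 and 33.8 in its replicates, so its mean in clone 12 went from 99.6 to 152.7, while the fit averaged log values. Leaving out that library, 11 members fell and 12 rose, and the 2 falls added were CPLX1 (-0.91, adjusted p = 0.0143) and RAB27A (-0.46, adjusted p = 0.00225). CPLX1 was near the floor, with 30 reads in all knockout libraries with DMSO and 33 in those with JQ1. Of these 33, 26 came from the library left out, so the CPLX1 call is limited by counting error. Over all genes 8922 were called without that library, against 7845 with it. Members barely detected elsewhere were present in that library, with 298 normalized counts of SNPH (syntaphilin), 449 of CADPS2 and 21.98 of SV2B, against at most 7.0 in its replicates.

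The difference in JQ1 response between genotypes was called for 3 of 32 members, 2 lower and 1 higher in the knockout clones, beside 1.55% of all genes lower and 1.55% higher. SYN1 went from 3.98, 15.0 and 7.96 to 24.6, 65.7 and 28.8 in knockout clones 12, 15 and 2-1, and from 511, 724 and 570 to 537, 832 and 754 in the control clones. It rose several-fold in every knockout clone, and its level there remained far below the control clones. Its response was higher in the knockout clones by 1.85 on the log2 scale (SE 0.21, adjusted p = 0.0149), and by 1.99 without the library that stood apart (adjusted p = 0.0102). SNAP25 went from 2551, 671 and 540.2 to 904, 277 and 262 in the knockout clones and from 1803, 3486 and 3348 to 2171, 2948 and 2835 in the control clones. All knockout clones fell while 1 control clone was higher and the other two lower with JQ1, a difference of -1.24 (SE 0.18, adjusted p = 0.0243) that was -1.09 without that library (adjusted p = 0.0103). RAB27A went from 297, 452 and 202 to 370.0, 307 and 163 in the knockout clones, where clone 12 without its deviating library was at 205, and rose in the control clones (difference -0.88, SE 0.17, adjusted p = 0.042; -1.08 and 0.00829 without that library). Without that library 7 members were called, adding SYP (1.08, adjusted p = 0.0134), BSN (1.36, adjusted p = 0.0129), RIMS2 (-1.20, adjusted p = 0.0275) and RAB3B (-0.95, adjusted p = 0.0292). Calls over all genes also went up, from 490 with that library to 1164 without it (571 lower and 593 higher). Leaving out any one control clone left no gene called by limma, with 2385 to 2627 genes and 8 to 10 members at an unadjusted p under 0.05. Of the 3 calls, edgeR kept SYN1.

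Related genes outside the 37 members were read from 3 lists. Of 43 tested genes of other release machinery, 9 fell and 1 rose in the knockout clones with DMSO, beside 6.23% and 6.32% of all genes, with a median log2 fold change of -0.11. SYNPR (synaptoporin, a relative of synaptophysin) was at a mean of 287 normalized counts in control clones and had 0 reads in the 9 knockout libraries, at least 846-fold lower by the limit that 3 reads over the group allow. SVOP, a transporter-like vesicle protein, fell by 6.23 on the log2 scale (adjusted p = 0.0217) and STXBP5L, the second tomosyn, by 4.46 (adjusted p = 0.00377). RPH3AL, a RAB effector of secretory cells, rose by 4.18 (adjusted p = 0.0465), from a mean of 4.17 to 160.7. Under JQ1 7 of the 43 were lower in the knockout clones and none was called higher, beside 5.59% and 6.37% of all genes. Without the library that stood apart, 8 were lower.

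Of the SNAREs of other membranes, 2 of 28 tested genes fell and 2 rose in the knockout clones with DMSO, and the median was 0.21. The share called was 14.3%, near the 12.5% of all genes called in either direction. STX6 and VAMP4, which act at the trans-Golgi and endosomes, fell by 1.16 and 0.99 on the log2 scale (adjusted p = 0.0377 and 0.0149). VAMP3 and SNAP23, which serve constitutive fusion at the plasma membrane, rose by 0.95 and 0.70 (adjusted p = 0.0182 and 0.044). In the vesicle endocytosis list 5 of 32 fell and 1 rose (18.8% called), with a median of -0.03. The clathrin adaptor SNAP91 fell by 4.79 (adjusted p = 0.0157), endophilin SH3GL2 by 2.32 (adjusted p = 0.00476) and auxilin DNAJC6 by 1.06 (adjusted p = 0.0466), while STON1 rose by 2.05 (adjusted p = 0.0283).

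JQ1 in control clones lowered 12 and raised 13 of the 43 other release genes, lowered 6 and raised 14 of the 28 SNAREs of other membranes, and lowered 3 and raised 13 of the 32 endocytosis genes, beside 24.9% of all genes lowered and 23.0% raised. The shares called in either direction were 58.1%, 71.4% and 50%, against 47.9% of all genes, and no difference between these shares was tested. STXBP2, a syntaxin-binding protein of granule secretion, fell by 1.92 (adjusted p = 0.000112), USE1, a SNARE of the endoplasmic reticulum, fell by 1.25 (adjusted p = 0.000136), and DNM3, a dynamin, rose by 1.15 (adjusted p = 0.000145). The response differed between genotypes for SH3GL2 (0.85, adjusted p = 0.0361) and ITSN2 (0.55, adjusted p = 0.0482) of the endocytosis list and STX3 (0.48, adjusted p = 0.048) of the SNAREs. Without the library that stood apart, SH3GL2 stayed called (1.006, adjusted p = 0.00829), while ITSN2 (0.33, adjusted p = 0.124) and STX3 (0.38, adjusted p = 0.0589) did not pass.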

How the data were processed

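Libraries were made with a stranded TruSeq kit for mRNA, per the labels' protocols. The submitters' processing notes name cutadapt, STAR, RSEM and the build hg19 (tool versions: not given in the sources used here). Both tables came from the authors. The authors deposited a signal table of 19014 genes, in which each gene count had been divided by the size factor of its library (normalized counts), and a table of FPKM values. All values of the first were whole multiples of the library's smallest step (100% within 1e-06), so reads per gene were recovered. VAMP7 has 2 rows in the SNARE list and is counted as 1 gene. Replicate libraries were averaged on log2(normalized count + 1) per clone and treatment. Fold changes are on that scale, which understates changes of low genes.

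Genes reaching 10 normalized counts in 9 or more of 36 libraries entered limma 3.58.1 (R 4.3.3, trend in the prior variance), 3 against 3 clones for genotype and on each clone's JQ1 minus DMSO difference for JQ1, with 1 estimate of the spread over 6 clones. P-values are two-sided, adjusted by Benjamini-Hochberg over all genes tested (threshold 0.05). Replicates are called biological in the labels, and p-values measure the spread between clones of 1 line. edgeR 4.0.16 and DESeq2 1.42.0 on recovered reads, other pseudocounts, filters and scalings, and leaving out clones or libraries were alternatives. Described in full were up to 3 called members per role and comparison (genotype with DMSO, JQ1 in control clones), called members moving against their role, members with a called difference in response, and up to 4 called genes per list of related genes. The members and lists were chosen with earlier results of these data known. Figures used Python 3.11.15 and matplotlib 3.10.9.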

Additional observations from a re-analysis of the deposited data

Results flagged for a closer look

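The response to JQ1 differed between genotypes by a test of the difference itself (limma, 3 knockout against 3 control clones) for 3 members. SYN1 responded by 1.85 more on the log2 scale in the knockout clones, and its level was higher with JQ1 in 3 of 3 knockout and 3 of 3 control clones. SNAP25 responded by -1.24 and RAB27A by -0.88 relative to the control clones. The adjusted p over the alternatives ran from 3.71e-09 to 0.104 for SYN1, from 7.03e-07 to 0.111 for SNAP25 and from 0.00127 to 0.244 for RAB27A, with 1 direction throughout. The call was lost in 3 of 22 alternatives for SYN1, in 8 of 22 for SNAP25 and in 11 of 22 for RAB27A.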

How the results depend on the processing

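For the 79 single-gene calls, 1614 alternative values kept direction and threshold, 137 lost the threshold (80 of these on leaving out a clone) and 0 changed direction. The count of members called for genotype with DMSO (20) ran from 13 to 21 when a clone or replicate number was left out, and with JQ1 (21) from 14 to 21. For JQ1 in control clones (14) it ran from 9 to 18 and was 4 with a 2-fold minimum, and for JQ1 in knockout clones (21) it was 9 with that minimum. Calls over all genes also moved when a clone or replicate number was left out. They ran from 906 to 2033 for genotype with DMSO, from 760 to 1743 with JQ1, and from 4945 to 8966 for JQ1 in control clones. With the 2-fold minimum 2002 and 1869 of all genes were called for JQ1 in control and in knockout clones. The count for the difference in response (3) was 5 with a pseudocount of 5, 6 with a stricter filter of 50 normalized counts, 1 with edgeR, 6 with DESeq2, 1 with no trend in the prior variance, 7 without the library that stood apart, and 0 to 8 on leaving out a clone or replicate number. With single libraries as replicates it was 12 with and 12 without a replicate block; the block gave 26, 24, 15 and 26 for the other comparisons, against 27, 24, 15 and 25 without it. The 18 correlations of same-numbered DMSO and JQ1 libraries' deviations within a clone were -0.263 to 0.0954. Across clones, 90 same-numbered pairs had correlations of -0.215 to 0.397 (median 0.0128) and 180 differently numbered pairs -0.340 to 0.302 (median -0.0114). Correlations over 0.1 were found in 13 of the 90 and 15 of the 180 pairs. The check within clones showed no pairing by number, and the difference across clones was not tested. The cause of the changes in the counts of members called was not tested. Over all genes, DESeq2 called 3327 for genotype with DMSO (1985 by limma) and 3054 with JQ1 (1893), and 1046 for the difference in response (490), where edgeR called 12 and FPKM gave 211. Single libraries gave 7856, 6803 and 4503 (7465, 6503 and 4476 with the block), which treats libraries of 1 clone as independent. With 9 libraries a group, members at a few reads, such as CPLX2 and RAB3C in knockout clones, are limited by counting error.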
